A study of Mus musculus with 39 samples.

Results

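Collagen genes other than the classical fibrillar ones were followed in mouse lung fibroblasts exposed to C1q. Members were taken by name: of the 30012 genes in the count table, 43 carried a collagen chain symbol (Col, a number, a and a number), and 37 were kept after Col1a1, Col1a2, Col3a1, Col5a1, Col5a2 and Col5a3 were set aside. Of the 37, 26 had enough counts to be tested among 14419 testable genes, and 11 did not. Choosing by name left in Col2a1, Col11a1, Col11a2, Col24a1 and Col27a1, which encode chains that form fibrils themselves and are called minor fibril-forming collagens here.

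The cells came from lungs of wild-type C57BL/6 mice and had passed magnetic depletion with antibodies to Ter119, CD146, EpCAM, CD31 and CD45. After 24 h without serum, treated groups received 1, 10 or 100 µg/ml of C1q and were taken 2, 24, 48 or 72 h later, and untreated cells were labelled 0 h. All 13 groups held 3 libraries, made from poly(A) RNA read from its 5′ ends. The mice's age and number are not given in the labels, nor is it said that libraries of a group came from separate cultures, so the spread between them may be technical. Because untreated cells exist at 0 h alone, time in culture and C1q cannot be told apart in any comparison with them, and no group received the C1q buffer without C1q. Comparisons of doses at 1 time hold time in culture fixed.

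Collagens are trimers of chains wound into a triple helix, and their families differ in what the trimers build. Type IV chains form the sheet-like network of basement membranes, type VI chains form beaded filaments around cells, and FACITs (fibril-associated collagens with interrupted triple helices) sit on the surface of collagen fibrils. Others span the plasma membrane, form short-chain networks around vessels, or carry large non-collagenous ends from which signalling fragments such as endostatin are cut. C1q itself, which starts the classical complement pathway, has a collagen-like stalk but is not a member here.

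Library totals ran from 1806106 to 3012518 counts, and the 37 genes together held 0.167 to 0.188% of the counts at 72 h, against 0.126 to 0.140% in untreated cells. Levels are given as CPM (counts scaled to a common library size) on trimmed-mean scaled totals, and since only 5′ ends were counted, levels of different genes are not set against each other. Among the libraries given 1 µg/ml for 24 h, the third stood apart, with a chi-square per degree of freedom of 8.02 and 8.48 against its replicates, where these gave 3.27 against each other. Fibroblast markers were high in every group, with a sum over 7 genes of 3562 to 5602 CPM in C1q libraries and 3716 to 4190 CPM in untreated ones. Markers of other cells were present and moved: the sum over 7 epithelial markers was 68.1 to 101 CPM at 72 h and 442 to 506 CPM in untreated cells, and that over 7 macrophage markers was 726 to 1187 CPM at 72 h and 213 to 234 CPM in untreated cells. In such bulk RNA, fewer cells of a type and less RNA per cell cannot be told apart.

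The regions just upstream of the RefSeq starts of 4 genes are shown because, among genes with a mean log2 CPM of at least 3, these were called between doses in the same direction at 2 or more times, 3 with lower levels at 100 µg/ml (Col28a1, Col23a1 and Col8a1) and 1 with a higher level (Col27a1). Each is the 250 bases before the RefSeq start on GRCm38.p6, written along the gene's own strand, and a window was given for 30 of the 37 genes. In GENCODE vM21 Col27a1 starts earlier, at chr4:63214004, so its window lies inside the gene by that annotation. Capitals mark GC boxes (GGGCGG, or CCGCCC on the other strand) and the SMAD-type letters CAGAC (or GTCTG).
Col28a1, chr6:8192618-8192867, minus strand: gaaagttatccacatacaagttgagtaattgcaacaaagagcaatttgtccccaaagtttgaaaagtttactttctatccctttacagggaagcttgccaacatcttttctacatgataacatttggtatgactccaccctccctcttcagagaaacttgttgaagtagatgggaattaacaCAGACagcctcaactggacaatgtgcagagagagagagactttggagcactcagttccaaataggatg
Col23a1, chr11:51289670-51289919, plus strand: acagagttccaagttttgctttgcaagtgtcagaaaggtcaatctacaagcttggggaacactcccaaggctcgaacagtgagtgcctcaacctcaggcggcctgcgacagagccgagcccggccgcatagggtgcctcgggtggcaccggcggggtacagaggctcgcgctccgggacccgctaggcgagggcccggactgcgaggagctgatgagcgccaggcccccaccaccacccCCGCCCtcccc
Col8a1, chr16:57754738-57754987, minus strand: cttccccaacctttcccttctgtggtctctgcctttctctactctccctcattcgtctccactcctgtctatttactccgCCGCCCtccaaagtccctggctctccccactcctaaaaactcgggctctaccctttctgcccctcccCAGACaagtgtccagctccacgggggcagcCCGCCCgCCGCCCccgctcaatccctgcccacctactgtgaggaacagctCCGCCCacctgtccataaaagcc
Col27a1, chr4:63215162-63215411, plus strand: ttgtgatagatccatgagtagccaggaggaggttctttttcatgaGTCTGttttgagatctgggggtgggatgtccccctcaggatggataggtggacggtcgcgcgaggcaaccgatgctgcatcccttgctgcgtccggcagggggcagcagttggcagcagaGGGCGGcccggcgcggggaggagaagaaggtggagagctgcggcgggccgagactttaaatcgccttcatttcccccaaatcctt
The Col28a1 window had 1 CAGAC and 0 GC boxes, that of Col23a1 1 GC box and 0 CAGAC, that of Col8a1 4 GC boxes and 1 CAGAC, and that of Col27a1 1 of each. Over 32851 windows of that length, 32.7% held a GC box and 42.2% held CAGAC, so either match is common. None of the 4 windows held TGANTCA (in 6.75% of all windows), CCAAT (33.8%) or TATAAA (12.4%), searched on both strands.

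Of the 26 tested genes, 3 to 18 were called against untreated cells, depending on the time. Against untreated cells, taking the mean of the 3 doses, 3 were called at 2 h (3 higher, 0 lower), 9 at 24 h (7 and 2), 14 at 48 h (10 and 4) and 18 at 72 h (13 and 5). A call means a Benjamini-Hochberg adjusted p under 0.05 in the quasi-likelihood test of edgeR, adjusted over all 14419 genes. Over all tested genes, 10.7% were called at 2 h (6.21% higher, 4.48% lower), 36.8% at 24 h (16.3% and 20.5%), 43.4% at 48 h (20.9% and 22.5%) and 48.9% at 72 h (23.6% and 25.3%). The members' share was thus near that of all genes at 2 and 24 h, and the share of all genes itself grew with time. At 72 h the median log2 difference of the 26 was 0.28, against 0.03 over all tested genes. The 4 comparisons share the same untreated libraries. Between 72 h and 2 h of C1q, which uses no untreated library, 18 of the 26 were called (12 higher, 6 lower), where 65.1% of all genes were (33.5% higher, 31.5% lower), again near the share of all genes.

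**Figure D1:**
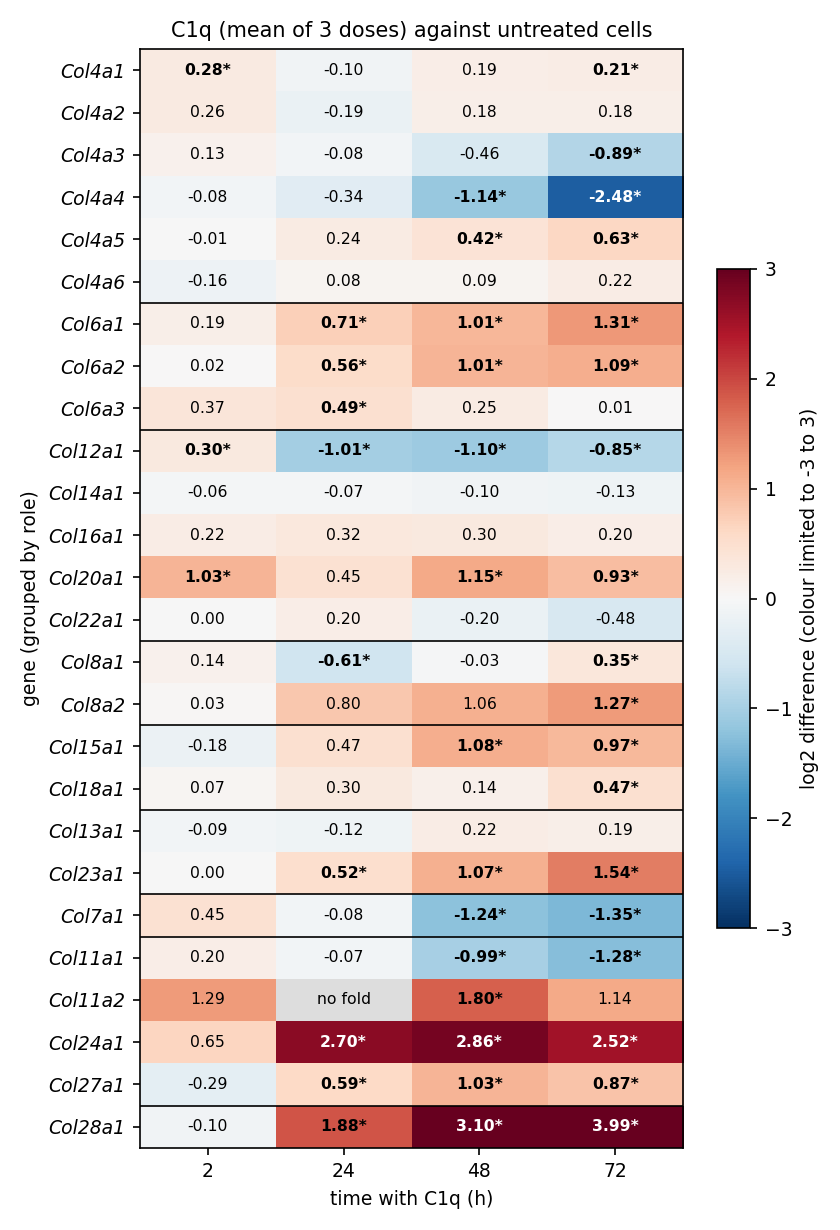
Log2 differences between C1q (mean of 1, 10 and 100 µg/ml) and untreated cells for the 26 tested genes (rows, ruled into groups by role) at 2, 24, 48 and 72 h (columns), with called differences in bold and starred. Col28a1 reaches 3.99 at 72 h and Col4a4 -2.48, and the cell marked "no fold" belongs to Col11a2 at 24 h, where a whole group had 0 counts.

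Fewer of them differed between doses, and in both directions. At 100 µg/ml against the mean of 1 and 10 µg/ml, 1 gene was called at 2 h (higher), 8 at 24 h (3 higher, 5 lower), 6 at 48 h (2 and 4) and 11 at 72 h (7 and 4), where 4.13%, 14.5%, 13.9% and 14.9% of all genes were called. Over all genes, 1.24% were higher and 2.89% lower at 2 h, 5.74% and 8.79% at 24 h, 5.46% and 8.43% at 48 h, and 6.6% and 8.3% at 72 h. Of the called genes, Col8a2, Col11a2 and Col24a1 reached the count filter's level of 4.01 CPM mainly or only in libraries of the groups where they were high, so their calls are not independent of the filter. These and Col22a1, which reached that level in 4 of the 39 libraries, were then left out. Of the other 22 genes, 0, 5, 4 and 9 were called between these doses at 2, 24, 48 and 72 h. By direction, 1 was higher and 4 lower at 24 h, 1 and 3 at 48 h, and 5 and 4 at 72 h. Against untreated cells 3, 8, 12 and 16 of the 22 were called, 3 higher and 0 lower at 2 h, 6 and 2 at 24 h, 8 and 4 at 48 h, and 11 and 5 at 72 h. The difference between doses itself changed with time for 6 of the 26 (an F test over times within the same edgeR fit), namely Col28a1, Col23a1, Col13a1, Col8a1, Col27a1 and Col14a1, where 10.6% of all genes passed. Between 10 and 1 µg/ml, 0 of the 26 were called at each of the 4 times, where 0.839%, 0.0485%, 0.208% and 0% of all genes were.

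**Figure D2:**
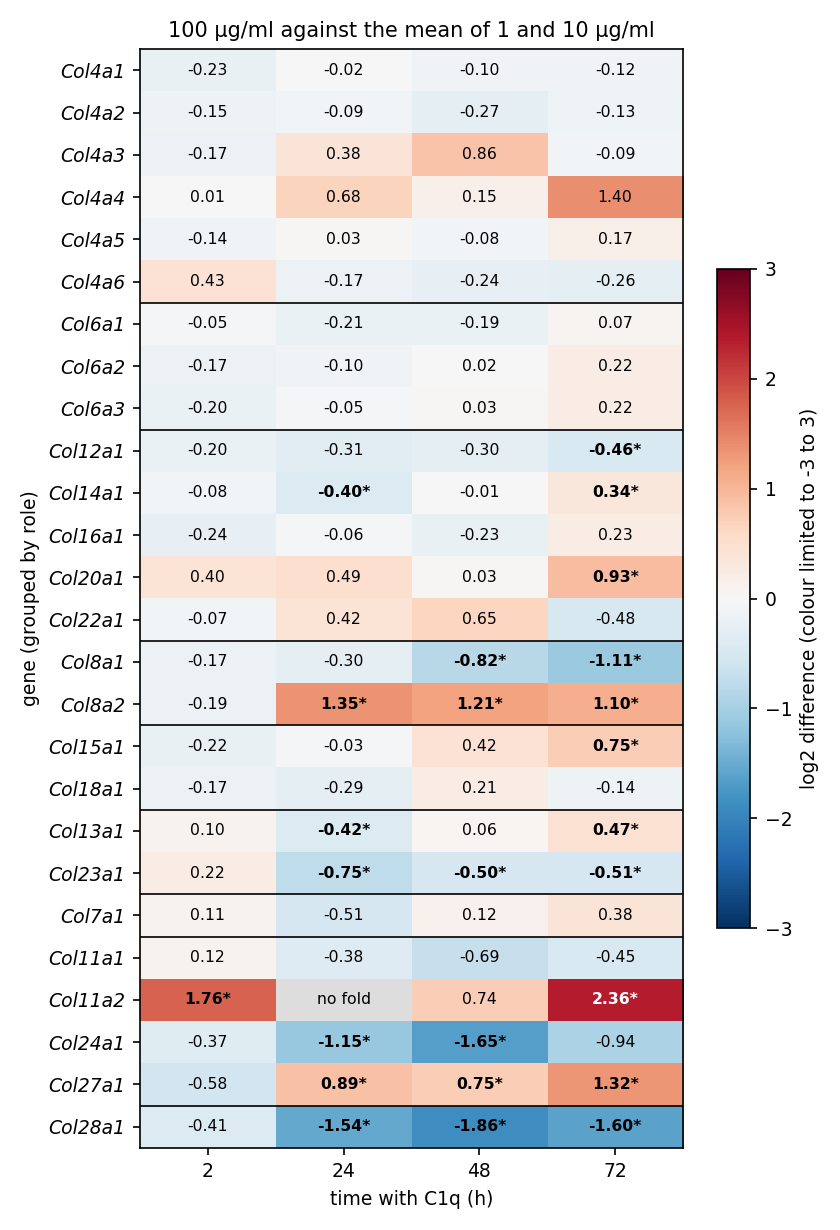
Log2 differences between 100 µg/ml and the mean of 1 and 10 µg/ml for the same 26 genes (rows, by role) at 2, 24, 48 and 72 h (columns), with called differences in bold and starred. Col28a1 stays between -1.54 and -1.86 from 24 h on while Col27a1 stays between 0.75 and 1.32, and the cell marked "no fold" is Col11a2 at 24 h. The stars of Col8a2, Col11a2 and Col24a1 rest on genes that passed the filter mainly or only through their high groups.

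Col28a1 showed the largest rise. It encodes a chain with von Willebrand factor A domains that in mice is best known from the basement membranes around glial cells of peripheral nerves. The gene spans chr6:7997808-8192617 (GRCm38). The 9 C1q libraries held 5.48 to 12.5 CPM (median 7.80) at 2 h, 16.02 to 58.7 CPM (median 40.1) at 24 h, 30.4 to 138 CPM (median 107) at 48 h and 62.4 to 225 CPM (median 201) at 72 h, against 9.62, 10.0 and 7.66 CPM in untreated cells. At 2 h the levels overlapped, and every C1q library from 24 h on lay above every untreated one. The log2 difference of the mean over doses from untreated cells was 1.88 ± 0.16 at 24 h, 3.10 ± 0.14 at 48 h and 3.99 ± 0.14 at 72 h (edgeR, adjusted p = 1.54e-13, 8.96e-23 and 7.73e-28), the last a 15.8-fold rise. That mean joins unlike levels. At 72 h the group means were 214, 204 and 68.6 CPM at 1, 10 and 100 µg/ml, against 9.09 CPM in untreated cells.

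The rise of Col28a1 was much smaller at the highest dose. After 24 h the libraries at 100 µg/ml held 16.6, 16.4 and 16.02 CPM, against 39.1 to 58.7 CPM (median 45.6) at 1 and 10 µg/ml. After 48 h they held 35.7, 32.7 and 30.4 CPM against 106 to 138 CPM (median 120.1), and after 72 h 71.0, 72.5 and 62.4 CPM against 192 to 225 CPM (median 206). The 2 sets of libraries did not overlap at any of these times. The log2 differences were -1.54 ± 0.13, -1.86 ± 0.11 and -1.60 ± 0.10 (edgeR, adjusted p = 2.72e-12, 1.10e-16 and 1.83e-17), and at 2 h -0.41 ± 0.22 (not called). At 72 h the 100 µg/ml libraries still lay above all untreated ones.

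Marker sums differed between doses, that of fibroblasts included. The fibroblast sum at 24 h was 3763 to 4275 CPM at 100 µg/ml and 4442 to 5266 CPM at the lower doses. At 72 h the order was the other way round, with 5180 to 5602 and 4584 to 4858 CPM. Of the 7 fibroblast markers, 4 were called lower at 24 h, 1 higher and 2 lower at 48 h, and 2 higher and 1 lower at 72 h. Marker sums of other cells differed at 72 h as well. At that time the mesothelial sum over 5 markers was 278 to 317 CPM at 100 µg/ml and 360.2 to 497 CPM at the lower doses, the endothelial sum over 5 markers 40.5 to 55.3 and 64.1 to 88.6 CPM, and the macrophage sum 726 to 877 and 871 to 1187 CPM. At 24 h the mesothelial sums at 100 µg/ml and the lower doses were 245 to 269 and 234 to 349 CPM. The endothelial sums were 36.9 to 40.4 and 41.7 to 50.5 CPM, and the macrophage sums 318 to 338 and 232 to 325 CPM. Of these markers, 0 of 5 mesothelial were called at 24 h, 1 of 5 endothelial lower and 1 of 7 macrophage higher. At 48 h, 1 mesothelial, 3 endothelial and 2 macrophage markers were called lower and 0 higher. At 72 h, 2 mesothelial, 2 endothelial and 4 macrophage markers were called lower and 0 higher. Over all genes, 5.74% were called higher and 8.79% lower at 24 h, 5.46% and 8.43% at 48 h, and 6.6% and 8.3% at 72 h. The sum over 5 Schwann cell markers, the glia of nerves, stayed low throughout. It was 11.7 to 18.3 CPM at 100 µg/ml and 8.13 to 14.2 CPM at the lower doses at 72 h, with 1 of the 5 markers at 0 in all 100 µg/ml libraries, and 4.26 to 9.22 CPM in untreated cells. The part of these cells in the differences between doses was not tested, here or for the genes below.

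**Figure D3:**
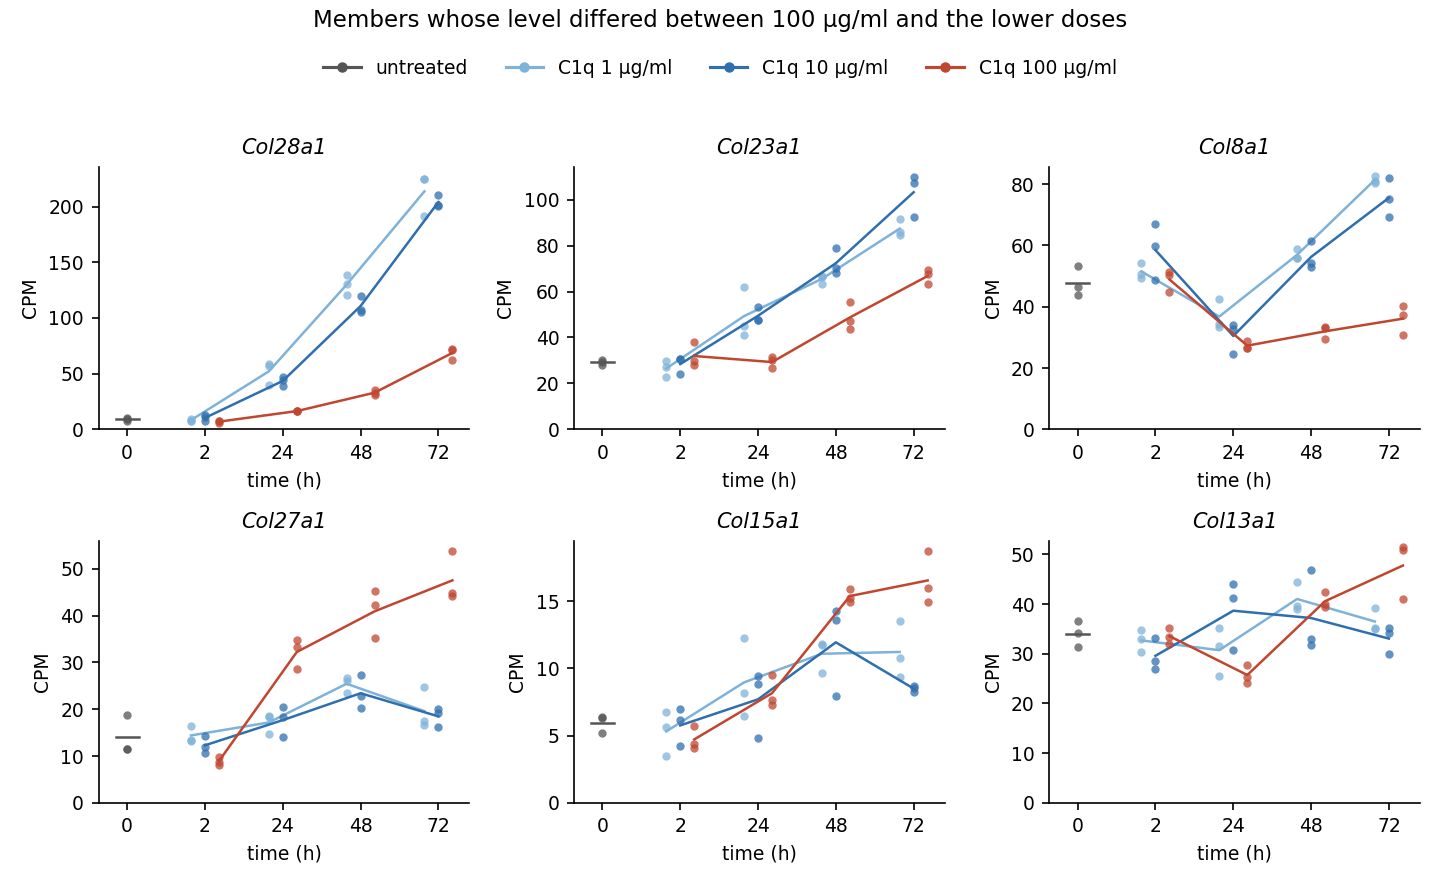
CPM of 6 genes in each of the 39 libraries (dots) against time in h (times evenly spaced, doses set side by side), with lines through the group means of 1 µg/ml (light blue), 10 µg/ml (dark blue) and 100 µg/ml (red), and untreated cells in grey at 0 h. At 72 h the red dots of Col28a1, Col23a1 and Col8a1 lie below all blue ones, and those of Col27a1, Col15a1 and Col13a1 lie above them.

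The transmembrane collagens Col23a1 and Col13a1 are single-pass surface proteins whose ectodomains can be shed, and Col13a1 is known from the neuromuscular junction. Col23a1 rose with time and, like Col28a1, was lower at 100 µg/ml than at the lower doses from 24 h on. Unlike that of Col28a1, its level at 100 µg/ml had not risen at 24 h, with a group mean of 29.3 CPM beside 29.1 CPM in untreated cells. The means at 1 and 10 µg/ml were then 49.3 and 49.45 CPM. The C1q libraries held 22.98 to 37.9 CPM (median 29.5) at 2 h, 26.5 to 62.0 CPM (median 44.8) at 24 h, 43.5 to 78.9 CPM (median 66.5) at 48 h and 63.4 to 109.9 CPM (median 85.9) at 72 h, against 28.1, 30.0 and 29.4 CPM in untreated cells. From 48 h on every C1q library lay above every untreated one. The log2 differences of the mean over doses from untreated cells at 24, 48 and 72 h were 0.52 ± 0.12, 1.07 ± 0.12 and 1.54 ± 0.11 (edgeR, adjusted p = 5.92e-04, 1.58e-10 and 9.37e-16). The called mean at 24 h thus joined a raised level at the lower doses and an unraised one at 100 µg/ml.

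By dose, Col23a1 at 24 h held 26.5, 30.0 and 31.4 CPM at 100 µg/ml, against 41.1 to 62.0 CPM (median 47.6) at the lower doses. At 72 h it held 63.4, 69.3 and 67.6 CPM at 100 µg/ml, against 84.8 to 109.9 CPM (median 92.0). The log2 differences between doses were -0.75 ± 0.12, -0.50 ± 0.11 and -0.51 ± 0.10 at 24, 48 and 72 h (edgeR, adjusted p = 6.97e-06, 0.00124 and 2.62e-04), with no overlap at any of the 3 times. Col13a1 was not called against untreated cells at any time, and its dose difference changed sign. At 24 h it held 25.3, 27.8 and 24.0 CPM at 100 µg/ml, against 25.4 to 44.04 CPM (median 33.4) at the lower doses, and at 72 h 41.1, 51.4 and 50.8 CPM against 29.9 to 39.3 CPM (median 35.0). The groups overlapped at 24 h and not at 72 h. The log2 difference was -0.42 ± 0.13 at 24 h and 0.47 ± 0.12 at 72 h (edgeR, adjusted p = 0.0209 and 0.00434). The 24 h call was lost without the third 10 µg/ml library (-0.36, adjusted p = 0.0636), the first 100 µg/ml library (-0.41, adjusted p = 0.0740) or the third 100 µg/ml library (-0.37, adjusted p = 0.122), and also with only the libraries compared (-0.42, adjusted p = 0.0740) and with thinned counts (-0.31, adjusted p = 0.212). The 72 h call was lost without the second 100 µg/ml library (0.41, adjusted p = 0.0593).

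Short-chain collagens build hexagonal networks in vessel walls and under the corneal endothelium. Of these, Col8a1 first fell and then came back at the lower doses alone. At 24 h it held 24.6 to 42.6 CPM (median 32.7) over the 9 C1q libraries, against 43.7, 46.3 and 53.2 CPM in untreated cells, all below them, a log2 difference of -0.61 ± 0.11 (edgeR, adjusted p = 9.15e-06). At 48 h it held 29.4, 33.1 and 33.4 CPM at 100 µg/ml, against 53.0 to 61.3 CPM (median 55.9) at the lower doses, and at 72 h 30.9, 40.1 and 37.3 CPM against 69.3 to 82.7 CPM (median 80.8). At 72 h the lower doses thus lay above the untreated libraries and 100 µg/ml below them, so that the called mean over doses (0.35 ± 0.10, adjusted p = 0.00411) describes neither. The difference between doses was -0.82 ± 0.12 at 48 h and -1.11 ± 0.11 at 72 h (edgeR, adjusted p = 1.37e-06 and 1.76e-10), without overlap. The call on the mean over doses at 72 h was lost without the first untreated library (0.25, adjusted p = 0.0847).

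Col8a2, whose product also forms type VIII trimers, was low, with 1.16 to 8.57 CPM (median 3.84) in C1q libraries at 72 h and 2.81, 1.05 and 0.852 CPM in untreated ones. At 100 µg/ml it held 6.33, 5.12 and 4.88 CPM at 24 h against 0.340 to 3.39 CPM (median 2.35) at the lower doses, and 6.08, 8.57 and 5.13 CPM at 72 h against 1.16 to 5.67 CPM (median 3.40). The groups were apart at 24 and 48 h and overlapped at 72 h. It reached the count filter's level in 11 of the 39 libraries, 9 of them at 100 µg/ml from 24 h on, so it entered the test largely through the group where it was high, and its levels are given with no test.

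The minor fibril-forming collagens were divided: of 4 tested, Col27a1 rose, Col11a1 fell, and Col24a1 and Col11a2 were low. Col27a1, which forms thin fibrils in cartilage and other developing tissue, was higher at 100 µg/ml from 24 h on. Only at that dose did its group mean keep rising, with 32.2, 40.9 and 47.5 CPM at 24, 48 and 72 h. At 1 and 10 µg/ml the means were 25.4 and 23.4 CPM at 48 h and 19.6 and 18.5 CPM at 72 h for Col27a1. Over the C1q libraries of 72 h it held 16.2 to 53.8 CPM (median 20.0), against 18.8, 11.6 and 11.5 CPM in untreated cells, with overlap. At 2 h it held 8.81, 8.10 and 9.86 CPM at 100 µg/ml, against 10.7 to 16.5 CPM (median 13.4) at the lower doses, all below them, a difference of -0.58 ± 0.21 that was not called. At 24 h it held 34.8, 33.3 and 28.6 CPM at 100 µg/ml, against 14.01 to 20.6 CPM (median 18.4), and at 72 h 44.1, 53.8 and 44.7 CPM against 16.2 to 24.8 CPM (median 18.3). At these times, and at 48 h, all 100 µg/ml libraries lay above all libraries of the lower doses. The log2 differences were 0.89 ± 0.14, 0.75 ± 0.14 and 1.32 ± 0.14 (edgeR, adjusted p = 1.09e-05, 1.21e-04 and 5.31e-10), the last a 2.50-fold difference. At 72 h the lower doses overlapped the untreated libraries and 100 µg/ml lay above them, so a mean over doses there joins unlike levels. Against untreated cells the mean over doses was higher by 0.59 ± 0.16, 1.03 ± 0.16 and 0.87 ± 0.16 at 24, 48 and 72 h (edgeR, adjusted p = 0.00394, 6.88e-07 and 1.58e-05). The 24 h call was lost without the second untreated library (0.47, adjusted p = 0.0535) or the third untreated library (0.43, adjusted p = 0.0782), and also with the column-name spelling as a term (0.57, adjusted p = 0.0659).

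Col24a1, a fibril-forming chain known from developing bone, held 1.39 to 6.61 CPM (median 3.39) at 24 h, against 0, 1.05 and 0.426 CPM in untreated cells, without overlap. At 48 h it held 0.526, 2.27 and 1.99 CPM at 100 µg/ml, against 3.94 to 7.13 CPM (median 5.16) at the lower doses, with no overlap. Col24a1 reached the filter's level in 8 of the 39 libraries, all at 1 or 10 µg/ml and none untreated, so it entered the test only through groups where it was high, and its levels are given with no test. Col11a1, the type XI chain that limits the width of fibrils, went down. It held 2.80 to 10.2 CPM (median 5.84) at 72 h, against 17.2, 15.3 and 9.37 CPM in untreated cells, of which the third was low, and the groups overlapped. Its differences were -0.99 ± 0.21 at 48 h and -1.28 ± 0.21 at 72 h (edgeR, adjusted p = 1.21e-04 and 1.95e-06). Its partner chain Col11a2 held 4.05, 4.29 and 4.19 CPM at 100 µg/ml after 72 h, against 0 to 1.78 CPM (median 0.846) at the lower doses, with no overlap. At 24 h it held 3.56, 1.46 and 3.48 CPM at 100 µg/ml and had 0 counts in all 3 libraries of 1 µg/ml, where a count of 0 allows up to 1.07, 1.02 and 1.27 CPM, so no fold is given. Col11a2 reached the filter's level in 4 of the 39 libraries, all at 100 µg/ml, and its levels are likewise given with no test.

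Of the multiplexins, which lie at basement membranes and release endostatin-like fragments, both rose. Col15a1 stood at 7.96 to 15.9 CPM (median 13.6) at 48 h and 8.28 to 18.8 CPM (median 10.8) at 72 h, against 5.21, 6.31 and 6.39 CPM in untreated cells, without overlap at either time. The log2 differences were 1.08 ± 0.23 and 0.97 ± 0.23 (edgeR, adjusted p = 1.35e-04 and 5.46e-04). At 72 h it held 18.8, 15.97 and 14.9 CPM at 100 µg/ml, against 8.28 to 13.5 CPM (median 9.03) at the lower doses, a difference of 0.75 ± 0.20 (edgeR, adjusted p = 0.00560) without overlap. This call was lost without the first 100 µg/ml library (0.66, adjusted p = 0.0512). An antisense gene, Gm12426, spans the start of Col15a1, and the treatment of strand in counting is not stated. Col18a1, the source of endostatin, held 19.3 to 33.7 CPM (median 26.1) at 72 h, against 21.2, 18.9 and 16.2 CPM in untreated cells, overlapping ranges with a difference of 0.47 ± 0.16 (edgeR, adjusted p = 0.0115), and it was not called between doses at any time. The 72 h call was lost without the third untreated library (0.34, adjusted p = 0.137).

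Type VI collagen showed a split between its chains. The products of Col6a1, Col6a2 and Col6a3 assemble together into one trimer, yet Col6a1 and Col6a2 rose steadily and Col6a3 did not. Col6a1 held 144 to 202 CPM (median 161), 183 to 239.9 CPM (median 198) and 219 to 287 CPM (median 258) at 24, 48 and 72 h, against 109, 100.0 and 99.6 CPM in untreated cells. Col6a2 held 145 to 217 CPM (median 174), 200.3 to 269 CPM (median 233) and 212 to 298 CPM (median 259) at these times, against 131, 108 and 117 CPM in untreated cells. For both genes all C1q libraries from 24 h on lay above the untreated ones. The log2 differences at 24, 48 and 72 h were 0.71 ± 0.10, 1.01 ± 0.10 and 1.31 ± 0.10 for Col6a1 and 0.56 ± 0.11, 1.01 ± 0.11 and 1.09 ± 0.11 for Col6a2 (edgeR, highest adjusted p = 3.50e-05). Neither was called between doses.

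Col6a3 held 66.6 to 130.0 CPM (median 73.8) at 24 h and 45.9 to 73.2 CPM (median 58.0) at 72 h, against 61.3, 61.0 and 47.3 CPM in untreated cells, apart from them at 24 h and overlapping at 72 h. Its log2 difference was 0.49 ± 0.14 at 24 h (edgeR, adjusted p = 0.00575) and 0.01 ± 0.15 at 72 h (not called), and at 72 h against 2 h of C1q it fell, with a difference of -0.37 ± 0.10 (edgeR, adjusted p = 0.00129). The highest value at 24 h was in the third library given 1 µg/ml, and without it the 24 h difference was 0.36 (edgeR, adjusted p = 0.0137). The 24 h call was lost without the third untreated library (0.35, adjusted p = 0.0998), and also with the column-name spelling as a term (0.20, adjusted p = 0.499). Within each library, Col6a3 counts stood at 0.181 to 0.281 of Col6a1 counts at 72 h and at 0.474 to 0.611 in untreated cells, a ratio of 5′ counts and not of chains. The other type VI genes, Col6a4, Col6a5 and Col6a6, had 11 to 17 counts in all 39 libraries together.

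**Figure D4:**
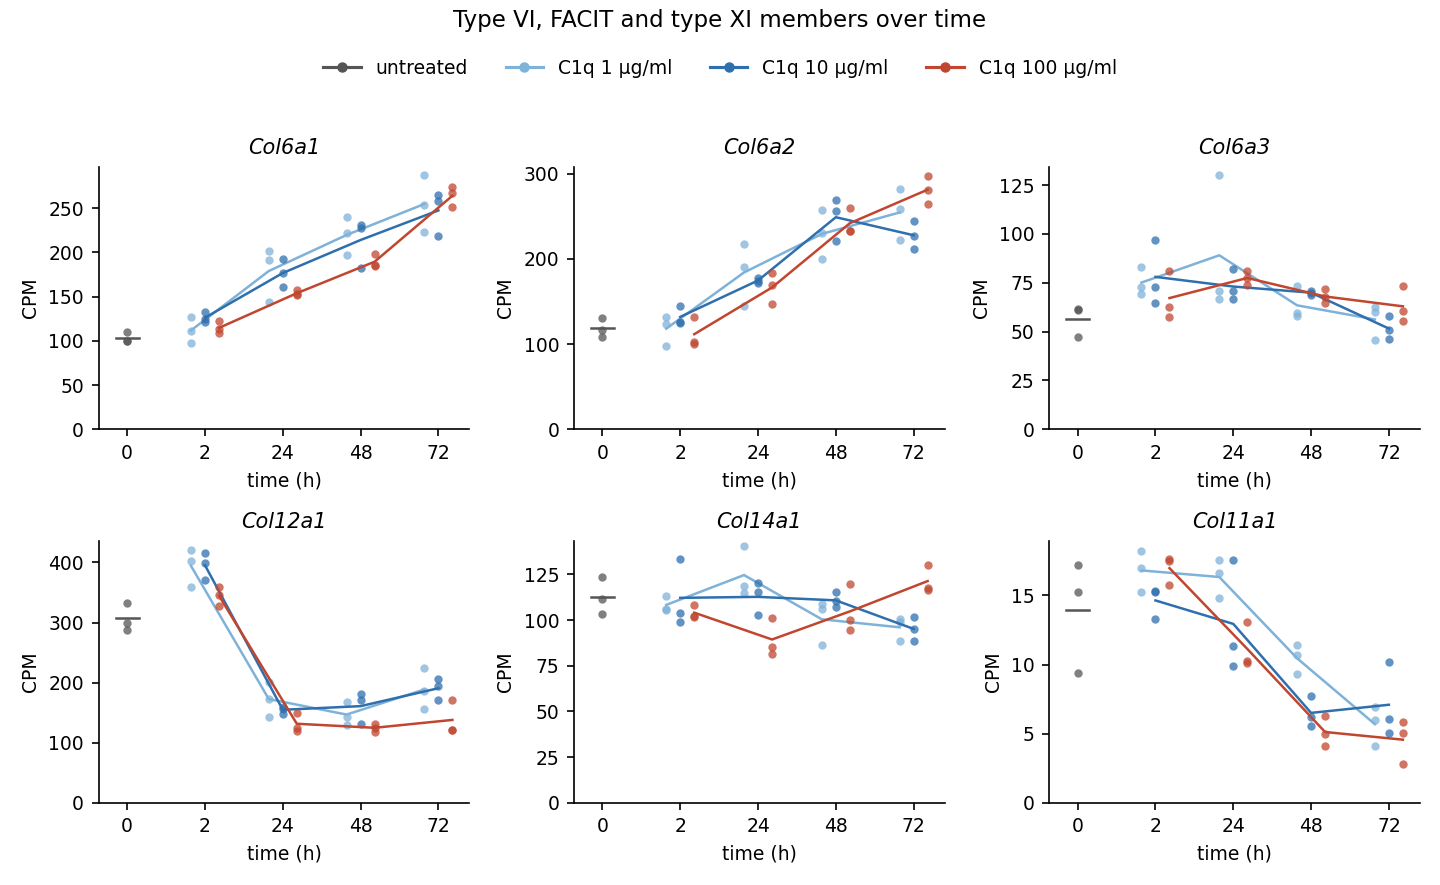
CPM of the type VI genes Col6a1, Col6a2 and Col6a3, the FACIT genes Col12a1 and Col14a1 and the type XI gene Col11a1 in each of the 39 libraries (dots) against time in h (times evenly spaced, doses set side by side), with lines through the group means of each C1q dose and untreated cells in grey at 0 h. Col6a1 and Col6a2 climb to between 212 and 298 CPM at 72 h, while Col12a1 drops between 2 and 24 h to 120 to 201 CPM.

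Of the FACITs, Col12a1 had an early rise and a late fall. Its product decorates type I collagen fibrils and is known from tissue under load. At 2 h it held 328 to 421 CPM (median 372), against 299.8, 288 and 333 CPM in untreated cells, a small difference of 0.30 ± 0.10 (edgeR, adjusted p = 0.0465) with overlapping libraries. This call was lost on leaving out any 1 of 25 libraries, with adjusted p up to 0.242, and with thinned counts (0.28, adjusted p = 0.0719). At 24, 48 and 72 h it held 120.4 to 201 CPM (median 150.2), 118 to 181 CPM (median 131) and 121 to 224 CPM (median 171), all below every untreated library. The differences were -1.01 ± 0.10, -1.10 ± 0.10 and -0.85 ± 0.10 (edgeR, adjusted p = 7.57e-12, 4.83e-13 and 5.33e-10). At 72 h it held 171, 122 and 121 CPM at 100 µg/ml, against 157 to 224 CPM (median 189.9) at the lower doses, overlapping levels with a difference of -0.46 ± 0.11 (edgeR, adjusted p = 0.00313). This call was lost without the second 100 µg/ml library (-0.38, adjusted p = 0.0618) or the third 100 µg/ml library (-0.38, adjusted p = 0.0539).

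Col14a1, a close relative of Col12a1 on fibrils of skin and tendon, was not called against untreated cells at any time. Its dose difference changed sign, as that of Col13a1 did. At 24 h it held 81.6, 101 and 85.4 CPM at 100 µg/ml, against 103 to 141 CPM (median 117) at the lower doses, and at 72 h 118, 116 and 130.0 CPM against 88.5 to 102 CPM (median 97.1). The groups did not overlap at either time, and the log2 differences were -0.40 ± 0.10 and 0.34 ± 0.09 (edgeR, adjusted p = 0.00230 and 0.00898). The 72 h call was lost without the third 100 µg/ml library (0.29, adjusted p = 0.0847). Col20a1, a FACIT with no well-established role, went up and down. Its medians were 8.50, 5.37, 8.41 and 6.82 CPM at 2, 24, 48 and 72 h, against 4.81, 2.63 and 3.41 CPM in untreated cells. The libraries overlapped the untreated ones, with 3.19 to 11.6 CPM at 2 h and 3.17 to 12.1 CPM at 48 h. The differences were 1.03, 1.15 ± 0.30 and 0.93 at 2, 48 and 72 h (edgeR, adjusted p = 0.0181, 0.00153 and 0.0101). Those at 2 and 72 h were not called without the second or without the third untreated library. BX649560.1, a gene on the same strand, overlaps Col20a1. At 72 h Col20a1 held 10.6, 11.7 and 10.3 CPM at 100 µg/ml, against 4.26 to 6.84 CPM (median 5.71) at the lower doses, without overlap (difference 0.93 ± 0.25, edgeR, adjusted p = 0.00778). This call was lost without the second 100 µg/ml library (0.87, adjusted p = 0.0615). Col16a1, and Col22a1 of tissue junctions, were called in none of the 14 comparisons by edgeR.

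The 6 type IV genes lie in head-to-head pairs, and the pairs behaved differently. The starts of Col4a1 and Col4a2 lie 21 bases apart, and the transcripts, on opposite strands, share the 22 bases at chr8:11312805-11312826 on GRCm38, shown to make plain how close the counted 5′ ends are. They hold 1 GC box, in capitals.
Shared start of Col4a1 and Col4a2, plus strand: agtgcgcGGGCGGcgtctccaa
The starts of Col4a3 and Col4a4 lie 72 bases apart around the gap chr1:82586850-82586920, shown for the same reason. This gap held none of the 5 motifs.
Gap between Col4a4 and Col4a3, plus strand: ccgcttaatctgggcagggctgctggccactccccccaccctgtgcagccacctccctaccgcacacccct
Those of Col4a5 and Col4a6 on chromosome X lie 1309 bases apart. As the handling of strand in counting is not given, reads at the shared starts cannot be assigned to either gene with certainty.

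Col4a1 and Col4a2, whose chains form the trimer found in nearly all basement membranes, changed little. Col4a1 held 216 to 313 CPM (median 273) at 2 h, against 240.5, 212 and 228 CPM in untreated cells, a difference of 0.28 ± 0.08, and at 72 h a difference of 0.21 ± 0.08 (edgeR, adjusted p = 0.0229 and 0.0298). The groups overlapped at both times, and the call at 72 h was lost on leaving out any 1 of 21 libraries, with adjusted p up to 0.260, and without the filter (0.20, adjusted p = 0.0798). The 2 h call was lost without the second untreated library (0.22, adjusted p = 0.192), the third untreated library (0.27, adjusted p = 0.0997), the third 1 µg/ml library (0.25, adjusted p = 0.0518) or the third 100 µg/ml library (0.24, adjusted p = 0.0591). Col4a2 was called in none of the 14 comparisons by edgeR, with a difference of 0.26 ± 0.09 at 2 h and 0.18 ± 0.09 at 72 h. The ratio of their counts stayed between 1.60 and 2.18 over all 39 libraries. Col4a5 rose, to 50.8 to 68.5 CPM (median 58.5) at 48 h and 50.8 to 78.7 CPM (median 70.3) at 72 h, against 46.9, 44.2 and 39.2 CPM in untreated cells, with no overlap and differences of 0.42 ± 0.14 and 0.63 ± 0.14 (edgeR, adjusted p = 0.0143 and 1.94e-04). The 48 h call was lost without the second untreated library (0.39, adjusted p = 0.0574) or the third untreated library (0.31, adjusted p = 0.144). Its neighbour Col4a6 was not called by edgeR, at 5.58 to 10.7 CPM (median 7.46) at 72 h and 8.82, 6.84 and 4.26 CPM in untreated cells.

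Col4a3 and Col4a4, which with Col4a5 give the trimer of the alveolar and glomerular basement membranes, both fell. Col4a4 held 0 to 5.06 CPM (median 1.52) at 72 h, against 8.82, 10.5 and 7.24 CPM in untreated cells, all below them, a difference of -2.48 ± 0.38 (edgeR, adjusted p = 5.35e-07). Col4a3 held 1.94 to 7.03 CPM (median 4.32) at 72 h, against 6.81, 5.79 and 12.3 CPM in untreated cells, with overlap and a difference of -0.89 ± 0.29 (edgeR, adjusted p = 0.0107). This call was lost without the third untreated library (-0.52, adjusted p = 0.257). Col7a1, whose product forms the anchoring fibrils below epithelia, fell as well, to 1.78 to 4.08 CPM (median 3.58) at 48 h and 0.827 to 4.69 CPM (median 2.88) at 72 h, against 7.62, 8.42 and 7.24 CPM in untreated cells. Its libraries did not overlap the untreated ones, and the differences were -1.24 ± 0.27 and -1.35 ± 0.27 (edgeR, adjusted p = 2.21e-04 and 6.05e-05). Epithelial markers fell over the same times, with all 7 called lower at 72 h, the sum of 68.1 to 101 CPM given above against 442 to 506 CPM in untreated cells, and none at 0. Lamb3, a laminin chain of epithelial basement membranes, had a log2 difference of -1.99 ± 0.22 at 72 h (edgeR). The part of epithelial cells in these falls was not tested. None of the type IV genes nor Col7a1 was called between 100 µg/ml and the lower doses at any time.

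**Figure D5:**
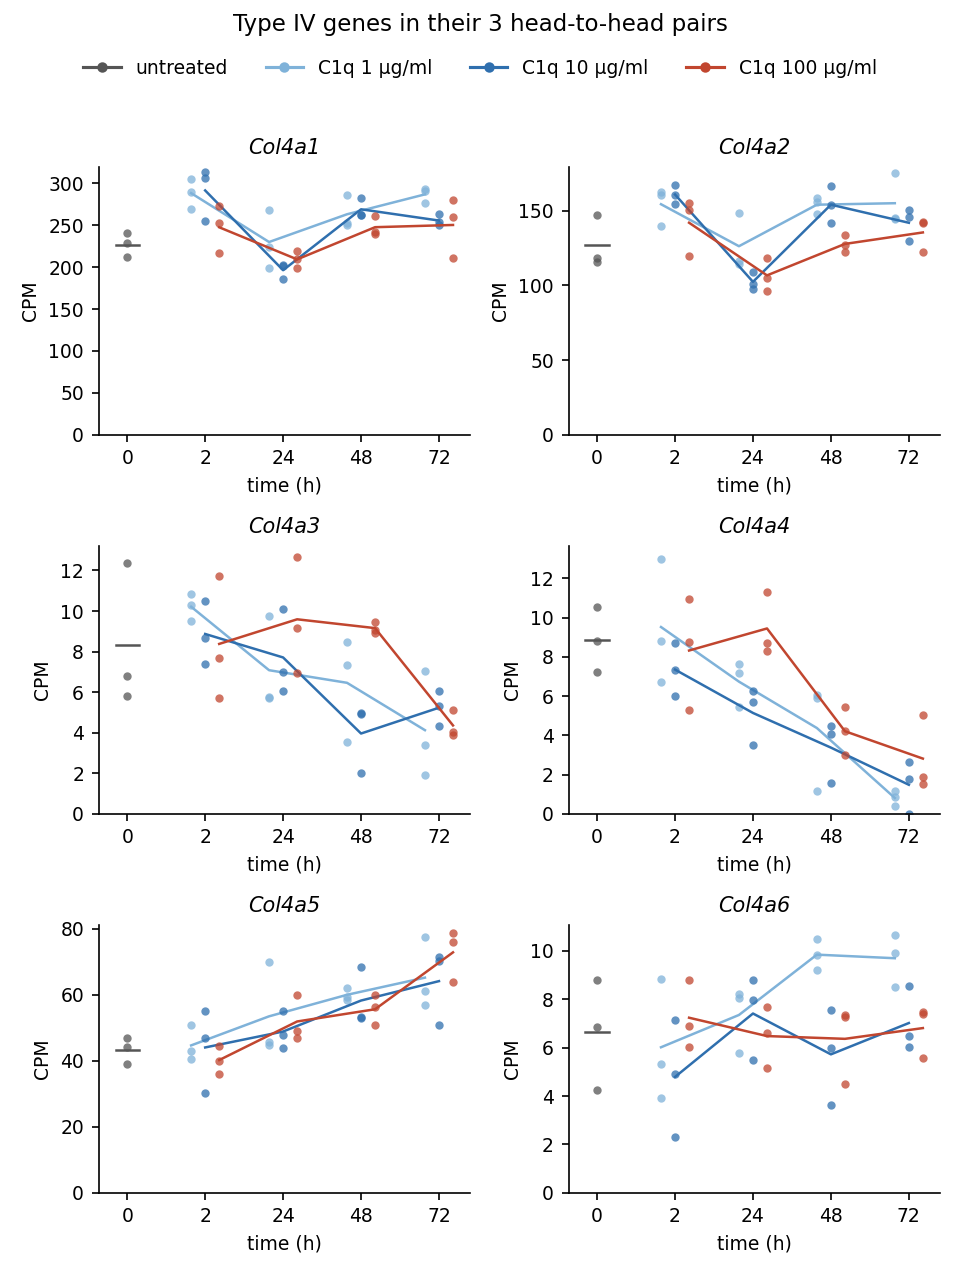
CPM of the 6 type IV genes, each head-to-head pair side by side, in each of the 39 libraries (dots) against time in h (times evenly spaced, doses set side by side), with lines through the group means of each C1q dose and untreated cells in grey at 0 h. Col4a3 and Col4a4 are lower at 72 h than in untreated cells, at 0 to 7.03 CPM, Col4a5 is higher, and the other 3 differ little.

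Between 10 and 1 µg/ml no difference was called for any of the 26 genes by edgeR or by DESeq2. At an unadjusted p under 0.05, 1, 5, 3 and 1 of the 26 differed at 2, 24, 48 and 72 h, and over all genes 1154, 919, 671 and 611 did. At 72 h, where edgeR and DESeq2 called 0 of all genes, 22 of the 26 genes had a log2 difference within 0.5 of 0. The widest at 72 h were -0.46 for Col4a6 and 0.94 for the low Col11a2, and at 2 h the highest was 1.09 for Col20a1, with 11.6, 10.7 and 7.67 CPM at 10 µg/ml and 3.19, 5.64 and 5.43 CPM at 1 µg/ml. These 3 genes were chosen for their values.

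Genes that make, bind or sense collagens moved in both directions. Over all genes, as above, 23.6% were higher and 25.3% lower at 72 h against untreated cells, and 6.6% and 8.3% between 100 µg/ml and the lower doses. Of 33 tested genes of collagen synthesis, 13 were higher and 9 lower at 72 h against untreated cells, with a median log2 difference of 0.07, against 0.03 over all tested genes. The largest differences there were those of Adamts3, a procollagen N-propeptidase (1.44 ± 0.25), P3h3, a prolyl 3-hydroxylase family member (1.04 ± 0.16), Loxl3, a lysyl oxidase (-0.96 ± 0.12), and Adamts2, another N-propeptidase (0.93 ± 0.09). Between 100 µg/ml and the lower doses at 72 h, 5 were higher and 2 lower, with Plod1, a lysyl hydroxylase, at 0.92 ± 0.12 and P4ha3, a prolyl 4-hydroxylase subunit, at -0.73 ± 0.11. Of 26 basement membrane genes 8 were higher and 7 lower at 72 h against untreated cells, among them Smoc2 (1.502 ± 0.10) and Fbln1 (1.39 ± 0.09), both secreted matrix proteins. Of 12 genes listed as collagen receptors 7 were higher and 3 lower at 72 h against untreated cells. Itga2, the integrin subunit that binds fibrillar collagen, stood at -1.62 ± 0.14 and Cd93, a C-type lectin family receptor known from endothelial and myeloid cells, at 1.99 ± 0.21. At 100 µg/ml against the lower doses at 72 h, 4 of the 12 were higher and 1 lower. Mrc2 had the largest higher difference, 0.68 ± 0.08, and the lower gene was Cd93, at -1.18 ± 0.18. Of the 6 fibrillar collagens set aside at the start, 2 were higher (Col3a1, 0.82 ± 0.07, and Col5a2, 0.23 ± 0.07) and 2 lower (Col5a3, -0.68 ± 0.22, and Col1a1, -0.35 ± 0.09) at 72 h against untreated cells, and 3 were higher and 0 lower at 100 µg/ml against the lower doses. All the differences in this paragraph are log2 values with SE from the same edgeR fit.

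The 11 genes with too few counts to test were Col2a1, Col9a2, Col9a3, Col10a1, Col17a1, Col19a1, Col25a1, Col26a1, Col6a4, Col6a5 and Col6a6. Col10a1, the collagen of hypertrophic cartilage, had the most, with 110 counts over 34 of the 39 libraries and at most 13 in 1, and Col9a2, a cartilage FACIT, the fewest, with 3. Col2a1, the main collagen of cartilage, had 10 counts in all, and Col17a1, a collagen of epithelial hemidesmosomes, had 57.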

How the data were processed

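Per the labels, poly(A) RNA was sequenced from its 5′ ends on 39 libraries, and per the submitters' processing notes cutadapt 2.1.0 and Bowtie2 2.4.2 were used with GRCm38. The deposited table holds raw read counts per gene. How reads were counted, with which annotation, strand or molecular identifiers, is not given in the sources used here, so counting error may be understated. Here, genes were filtered by edgeR's expected counts (minimum count 10), scaled by trimmed means, and fitted in 1 quasi-likelihood model over 13 groups with 14 comparisons (edgeR 4.0.16, R 4.3.3), with Benjamini-Hochberg adjustment at 0.05. The fit was tested on simulated data. DESeq2 1.42.0 and other settings were tried as alternatives. The members, gene lists and tests were chosen with earlier results of these data known. Genes were described per library where called with a mean log2 CPM of at least 3, and lower genes were added after their values were seen. Genes of other lists were named by the largest called differences. Gene positions come from GENCODE vM21. Replicate numbers follow accession order. LOC118568312 held 6.10 to 14.1% of the counts. Of the 39 column names, 9 are spelled in another way, and this spelling was tried as a term. Among 24 h libraries, each one that received 10 or 100 µg/ml has it. With 1 µg/ml, the third library of 24 h has it, the one that stood apart, while its replicates do not. The first and second libraries of 48 h at that dose have it too. At 24 h the spelling was thus largely aligned with time and dose. Only these groups given 1 µg/ml hold both spellings, so the term rests on them. No column was left unused.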

Additional observations from a re-analysis of the deposited data

Results flagged for a closer look

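For 6 genes the difference between 100 µg/ml and the lower doses itself changed between 2, 24, 48 and 72 h, by an F test in the edgeR fit with Benjamini-Hochberg adjustment over all 14419 genes. The adjusted p was 4.77e-06 for Col27a1, 4.12e-05 for Col8a1, 6.71e-04 for Col23a1, 9.48e-04 for Col14a1, 9.96e-04 for Col28a1 and 0.00340 for Col13a1. That of Col13a1 was 0.0535 with counts thinned to the smallest total. Col13a1 and Col14a1 had called differences of opposite sign at 24 and 72 h, and Col27a1 was called higher from 24 h on after a difference of -0.58 at 2 h that was not called. Col28a1, Col23a1 and Col8a1 were called lower at the later times only, with differences at 2 h of -0.41, 0.22 and -0.17 that were not called. Why the dose difference depends on time was not tested.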

How the results depend on the processing

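Over 94 calls of the 26 genes, 67 were kept under every alternative that gave a value and every left-out library, 81 under the alternatives alone and 68 with each library left out. Of the 94, 6 were of Col24a1, 5 of Col8a2 and 4 of Col11a2. These genes entered the test mainly or only through their high groups, so whether their calls were kept is no support for them. All 7 alternatives gave a value for 83 of the calls and 4 to 6 for the other 11, all of Col8a2, Col11a2 or Col24a1. Of the recomputed values, 0 of 4307 reversed in sign, and the F values for the change of the dose difference with time, counted among them, have no sign. With 1 library left out, the genes called ranged from 0 to 5 against untreated cells at 2 h (3 with all libraries), and between 100 µg/ml and the lower doses from 0 to 1 at 2 h and from 7 to 12 at 72 h. The single call at 2 h between those doses went to 0 with DESeq2, with only the libraries compared and with counts thinned to the smallest total, and the 8 at 24 h went to 5 with DESeq2 and with only the libraries compared. Over all genes, 2617 in place of 5311 were called against untreated cells at 24 h with the column-name spelling as a term, and 385 in place of 596 between 100 µg/ml and the lower doses at 2 h with only the libraries compared. Between 10 and 1 µg/ml the 121 genes at 2 h went to 50 with only the libraries compared. The 7 at 24 h went to 81 without the filter, 1 with only the libraries compared and 0 with the spelling term. The 30 at 48 h went to 16 with DESeq2, 78 without the filter, and 0 with only the libraries compared and with the spelling term, and the 0 at 72 h went to 7 without the filter. With 1 library left out, the genes called between 10 and 1 µg/ml ranged from 45 to 177 at 2 h, from 0 to 168 at 24 h (168 without the third library given 1 µg/ml for 24 h) and from 1 to 73 at 48 h. Likewise, they ranged from 993 to 1678 against untreated cells at 2 h (1542 with all), and between 100 µg/ml and the lower doses from 323 to 643 at 2 h (596), 1294 to 2536 at 24 h (2095), 1217 to 2114 at 48 h (2002) and 1405 to 2289 at 72 h (2149). The causes were not tested. No paired analysis was possible because the labels carry only serial numbers, and the replicate numbers are names in accession order.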
